A study of Mus musculus with 24 samples.

Results

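De novo lipogenesis, the making of fatty acids from carbohydrate carbon, was followed in mouse liver through 10 entries of the gene table, out of 24421 gene symbols counted. They were taken by symbol: the transcription factor gene Srebf1, Rai1, whose last exon overlaps it on the other strand, the synthesis enzymes Acly, Acaca, Fasn, Elovl6 and Scd1, the NADPH source Me1, the acyltransferase Gpam and the regulator Thrsp. In this pathway Acly splits exported citrate into acetyl-CoA, Acaca carboxylates it to malonyl-CoA, and Fasn builds palmitate with NADPH that Me1 and other enzymes supply. Elovl6 then lengthens palmitate, Scd1 introduces a double bond, and Gpam attaches the acyl chain to glycerol-3-phosphate, the first step of triglyceride synthesis. In liver the SREBP-1 protein, encoded by Srebf1, and Thrsp are known to promote this programme after feeding and insulin, and dietary polyunsaturated fat is known to dampen it. Rai1 encodes a chromatin-associated transcriptional regulator and is no part of the pathway.

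The RNA came from livers of male C57Bl/6J mice in 8 groups of 3 libraries, sacrificed after a 4-hour fast. Groups named m12 were housed for 9 months beyond the exposure, and groups named w12 were killed when the exposure ended. WD stands for the Western-style diet with 42% fat, CD for the low-fat control diet with 13% fat. The suffix +VC stands for vinyl chloride, an industrial chemical, inhaled at 0.85 ± 0.1 ppm in sessions of 6 hours, 5 of them weekly, for 12 weeks, and groups without it breathed air. The groups were m12_WD+VC, m12_WD, m12_CD+VC, m12_CD, w12_WD+VC, w12_WD, w12_CD+VC and w12_CD. All mice were of this one strain and sex, and the m12 mice are labelled with a feeding time of 12 months, although the protocol text does not say which of them stayed on Western diet. The labels do not tie each library to an animal of its own, so a p-value measures the spread between libraries, which may be technical.

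The libraries held few counts, and 1 was nearly empty. Replicate 3 of w12_WD had only 607 counts, while the remaining 23 libraries had between 126160 and 962493. One count was therefore a coarse unit, and the 3 counts that an unseen transcript could still have hidden came to 3.12 to 23.8 CPM in those 23 libraries, for counting error only. CPM is an entry's count per 1000000 counts of its library. Means and SD below leave out the small library, so that w12_WD has n = 2 and every other group n = 3, while the model was fitted to all 24 libraries. Of 10 hepatocyte marker genes, 10 had counts in each of the 8 groups. All 10 lipogenic entries were among the 4198 that passed the expression filter and were tested.

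The promoters of the 4 lipogenic genes that passed a test, and of Srebf1, are printed because the levels of these genes were correlated across the 23 libraries, as given further on. Each runs from 250 bases before to 50 bases after an annotated start, 5′ to 3′ along the gene, from RefSeq on GRCm38.p6. Capitals mark CCAAT boxes (CCAAT, or ATTGG on the other strand) and GC boxes (GGGCGG, or CCGCCC), which are known binding sequences of NF-Y and of Sp1. All 5 genes lie on the minus strand. Srebf1 has 3 such windows and Me1 and Gpam 2 each: shown are the outermost for Me1 and Gpam and, chosen after the matches were seen, the one with both motifs for Srebf1.
Fasn, chr11:120824498-120824797: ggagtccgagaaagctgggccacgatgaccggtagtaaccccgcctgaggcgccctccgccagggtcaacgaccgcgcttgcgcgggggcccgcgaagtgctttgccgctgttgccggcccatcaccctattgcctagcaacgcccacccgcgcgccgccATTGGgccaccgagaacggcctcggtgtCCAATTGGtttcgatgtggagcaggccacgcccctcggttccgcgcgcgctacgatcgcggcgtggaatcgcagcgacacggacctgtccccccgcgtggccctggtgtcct
Acly, chr11:100527951-100528250: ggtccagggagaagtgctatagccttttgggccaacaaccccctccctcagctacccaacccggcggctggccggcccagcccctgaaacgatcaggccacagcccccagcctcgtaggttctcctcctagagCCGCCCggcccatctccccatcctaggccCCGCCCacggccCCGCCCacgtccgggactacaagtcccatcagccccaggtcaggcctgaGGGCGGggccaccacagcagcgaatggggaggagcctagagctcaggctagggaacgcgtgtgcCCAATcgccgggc
Me1, chr9:86695865-86696164: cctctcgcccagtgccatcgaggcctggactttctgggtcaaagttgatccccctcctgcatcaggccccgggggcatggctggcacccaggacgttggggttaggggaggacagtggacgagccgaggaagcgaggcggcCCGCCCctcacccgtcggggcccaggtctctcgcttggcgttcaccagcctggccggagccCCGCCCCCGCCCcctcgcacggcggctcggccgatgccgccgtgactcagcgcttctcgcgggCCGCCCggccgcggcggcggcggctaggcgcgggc
Gpam, chr19:55127189-55127488: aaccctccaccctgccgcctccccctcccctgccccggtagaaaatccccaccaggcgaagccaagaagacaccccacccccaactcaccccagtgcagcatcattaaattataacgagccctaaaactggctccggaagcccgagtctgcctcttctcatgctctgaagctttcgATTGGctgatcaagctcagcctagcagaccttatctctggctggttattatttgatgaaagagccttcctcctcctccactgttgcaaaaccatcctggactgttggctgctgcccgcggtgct
Srebf1, chr11:60210422-60210721: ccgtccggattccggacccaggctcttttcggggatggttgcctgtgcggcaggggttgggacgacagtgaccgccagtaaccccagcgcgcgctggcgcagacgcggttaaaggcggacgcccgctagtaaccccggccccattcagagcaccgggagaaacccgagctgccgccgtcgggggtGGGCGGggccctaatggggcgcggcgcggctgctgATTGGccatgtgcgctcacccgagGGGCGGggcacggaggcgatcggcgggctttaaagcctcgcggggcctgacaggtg
The Fasn window held 3 CCAAT matches, 2 of them overlapping on opposite strands, and no GC box match, whereas the Me1 window held 4 GC box matches and no CCAAT match. The Acly window had both, 1 CCAAT and 4 GC boxes, the Srebf1 window 1 CCAAT and 2 GC boxes, and the Gpam window 1 CCAAT match. RefSeq windows were at hand for 9 of the 10 genes, 13 windows in all, and none for Scd1. A CCAAT match stood in 7 of these 13 windows, against 37.4% of 32851 windows of the same length, and a GC box match in 6 of 13, against 35.7%. Both strands were searched. The E-box CACGTG, found in 7.15% of all windows, and 1 spelling of the sterol response element, TCACNCCAC, found in 1.24%, were in 0 of the 13. For motifs this rare, 0 of 13 windows does not show that the genes lack such sites. A match is a description of these letters and not a bound site.

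Among the 10 entries the level differed widely. Per kilobase of exon, Scd1 was the most abundant, with a median over the 23 libraries of 94.2 CPM per kb, before Rai1 with 36.6, Thrsp with 24.6 and Srebf1 with 8.82 CPM per kb. Fasn followed with 4.70, Me1 with 4.47, Acly with 3.40, Gpam with 1.87, Elovl6 with 1.20 and Acaca with 0.974 CPM per kb. Fasn and Me1 stood close together in this order, as did Elovl6 and Acaca, well within their spread over libraries. The highest mean level over the 8 groups was in m12_CD+VC for 9 of the 10 entries, Rai1 being the exception with its highest mean in w12_WD. The lowest mean was in w12_WD+VC for 9 of the 10, and that of Gpam was in m12_CD. These ranks of means carry no test.

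**Figure D1:**
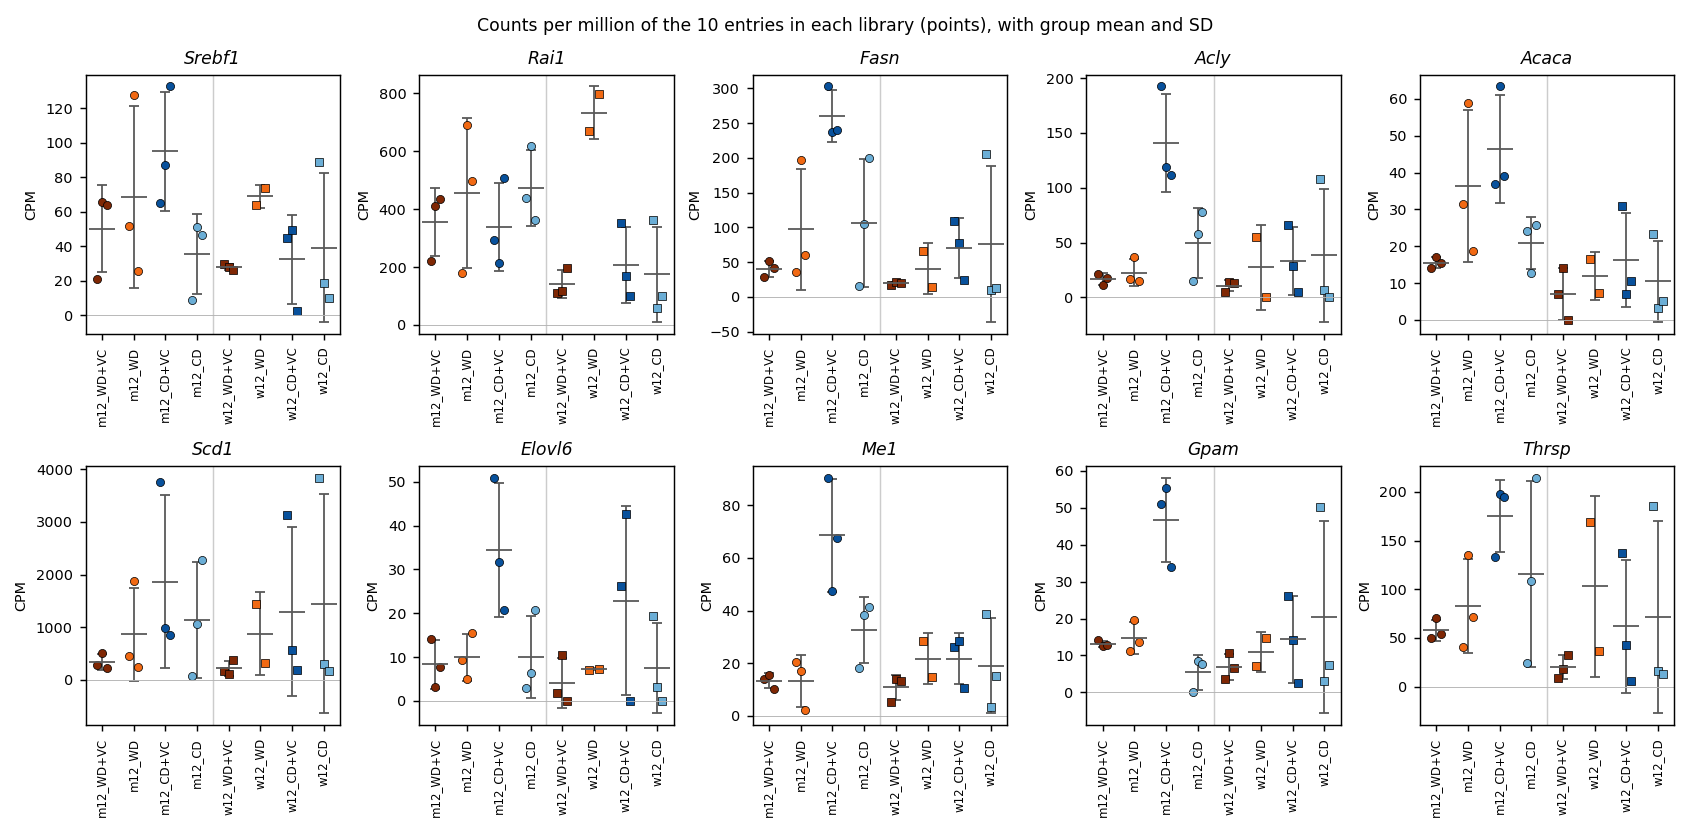
CPM of each of the 10 entries (y axis, linear, a scale per panel) in the 8 groups (x axis). Points are libraries (circles m12, squares w12), dashes the group mean and whiskers the SD; the w12_WD library with 607 counts is left out. In the Fasn panel the 3 m12_WD+VC libraries lie between 28.3 and 51.5 CPM, below the 3 m12_CD+VC libraries at 238 to 303 CPM.

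At 12 months, Fasn, Acly and Me1 were lower on Western diet than on control diet among mice that had inhaled vinyl chloride. Fasn, the fatty acid synthase, had 28.3, 51.5 and 41.1 CPM in the m12_WD+VC libraries, against 303, 238 and 239 CPM in the m12_CD+VC libraries. Acly, the ATP citrate lyase, had 21.2, 10.9 and 18.0 CPM in m12_WD+VC, against 192, 119 and 112 CPM in m12_CD+VC. Me1, the cytosolic malic enzyme, had 14.1, 15.6 and 10.3 CPM in m12_WD+VC, against 90.6, 47.6 and 67.7 CPM in m12_CD+VC. For none of these genes did the groups overlap. The Western diet libraries stood close together in CPM, but on few counts. These were 4, 33 and 16 for Fasn, 3, 7 and 7 for Acly, and 2, 10 and 4 for Me1, so the closeness is a coarse reading. The fitted log2 fold change of WD+VC over CD+VC was -2.58 for Fasn (SE 0.69, a 5.96-fold lower level), with a Benjamini-Hochberg adjusted p of 0.0438 in edgeR's quasi-likelihood test. It was -3.16 for Acly (SE 0.81, 8.91-fold lower, adjusted p 0.0324 in the same edgeR fit) and -2.35 for Me1 (SE 0.62, 5.11-fold lower, adjusted p 0.0425 in edgeR). These 3 of 10 entries fell, where 1.1% of all tested entries fell and 1.81% changed in either direction.

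The other enzymes and Thrsp had lower values in the same comparison without passing that test. Scd1, the stearoyl-CoA desaturase, had 276, 504 and 226 CPM in m12_WD+VC, against 3756, 983 and 846 CPM in m12_CD+VC, with a log2 fold change of -2.42 (SE 0.92) and an adjusted p of 0.191 in edgeR. Elovl6, the elongase of palmitate, had 14.1, 3.12 and 7.70 CPM in m12_WD+VC, which are 2, 2 and 3 counts, against 50.9, 31.7 and 20.8 CPM in m12_CD+VC, and its log2 fold change was -2.27. The groups did not overlap for either gene. Acaca, the acetyl-CoA carboxylase, had 14.1, 17.2 and 15.4 CPM in m12_WD+VC, against 36.8, 63.4 and 39.0 CPM in m12_CD+VC, with a log2 fold change of -1.43. Gpam had 14.1, 12.5 and 12.8 CPM in m12_WD+VC, against 50.9, 55.5 and 33.8 CPM in m12_CD+VC, with a log2 fold change of -1.76. Thrsp, the thyroid hormone responsive spot 14 protein gene, had 49.5, 70.2 and 53.9 CPM in m12_WD+VC, against 133, 198 and 195 CPM in m12_CD+VC, with a log2 fold change of -1.52. Srebf1 had 21.2, 65.5 and 64.2 CPM in m12_WD+VC, against 65.1, 87.2 and 133 CPM in m12_CD+VC, and Rai1 had 219, 410 and 434 CPM in m12_WD+VC, against 294, 214 and 507 CPM in m12_CD+VC. The groups overlapped for both, with log2 fold changes of -0.80 (SE 0.59) for Srebf1 and 0.07 (SE 0.45) for Rai1. Thus 8 of the 10 entries had all WD+VC libraries below all CD+VC libraries, which held for 12.5% of the 4198 tested entries. An unadjusted p under 0.05 in edgeR was found for 8 of the 10, beside 619 of all tested entries. The median log2 fold change was -2.01 over the 10 entries and -0.01 over all tested entries.

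The calls rested on few libraries. Leaving out any 1 of the 6 libraries compared left none of the 10 entries past the threshold, with adjusted p up to 0.179 for Fasn, 0.208 for Acly and 0.216 for Me1. Without the small w12_WD library, which enters only the shared estimate of spread, Acly stayed past it at an adjusted p of 0.0389, and Fasn was at 0.0526 and Me1 at 0.0542. With RLE scaling and with DESeq2 none passed, and DESeq2 gave adjusted p of 0.0875 for Fasn and 0.111 for Acly and none for Me1. Without the expression filter 3 of the 10 passed in edgeR, Fasn and Acly among them but not Me1. DESeq2 set no adjusted p for up to 7 of the 10 entries in a comparison, which limits its counts of 0 below. Cell type markers moved with the comparison as well. The summed level of the 10 hepatocyte markers was 8501 to 13299 CPM in m12_WD+VC and 18867 to 38760 CPM in m12_CD+VC. The 14 macrophage markers summed to 318 to 591 CPM in m12_WD+VC and 232 to 317 CPM in m12_CD+VC. The 5 cholangiocyte markers summed to 42.4 to 92.4 CPM in m12_WD+VC and 7.81 to 28.3 CPM in m12_CD+VC, where Krt19 and Krt7 were at 0. Entries with no overlap on the other strand, Fasn and Acly among them, took 20.6% ± 2.42 of the counts in m12_WD+VC and 26.5% ± 4.64 in m12_CD+VC (SD, n = 3 each), and with such entries scaled as a class of their own Acly and Me1 passed and Fasn did not. The part of these shifts in the lipogenic result was not tested, and in such tissue samples fewer cells of a type and less RNA per cell cannot be told apart.

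On control diet at 12 months, most lipogenic entries had higher values after vinyl chloride than after air, but only Gpam passed the test. Gpam had 50.9, 55.5 and 33.8 CPM in m12_CD+VC, against 0, 8.50 and 7.76 CPM in m12_CD, where these were 0, 4 and 3 counts. The groups did not overlap. Its log2 fold change of VC over air was 2.62 (SE 0.79, 6.13-fold), with an adjusted p of 0.0478 in edgeR's quasi-likelihood test. This was 1 of 10 entries, beside 4.1% of tested entries higher and 5.22% in either direction, a count too small to be set apart from that share. The call was lost when any 1 of the 6 libraries or the small w12_WD library was left out, with adjusted p from 0.0576 to 0.202.

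Fasn in this comparison had 303, 238 and 239 CPM in m12_CD+VC, against 15.1, 104 and 199 CPM in m12_CD, and Acly had 192, 119 and 112 CPM in m12_CD+VC, against 15.1, 57.4 and 77.6 CPM in m12_CD. The air-exposed group was thus the uneven one, library 1 being far below library 3. Their log2 fold changes of 0.98 (SE 0.63) for Fasn and 1.17 (SE 0.68) for Acly did not pass, with adjusted p of 0.298 and 0.248 in edgeR. Srebf1 had 65.1, 87.2 and 133 CPM in m12_CD+VC, against 9.03, 51.0 and 46.6 CPM in m12_CD, with a log2 fold change of 1.11 (SE 0.60) and an adjusted p of 0.217 in edgeR. In 7 of the 10 entries, Srebf1, Fasn, Acly, Acaca, Elovl6, Me1 and Gpam, all 3 VC libraries lay above all 3 air libraries, as they did for 25.1% of tested entries. Hepatocyte markers summed to 18867 to 38760 CPM in m12_CD+VC and 3508 to 11249 CPM in m12_CD. Other cell types were apart in the same direction: macrophage markers summed to 232 to 317 CPM in m12_CD+VC and 66.2 to 140 CPM in m12_CD, stellate and fibroblast markers to 91.1 to 135 CPM in m12_CD+VC and 6.02 to 25.5 CPM in m12_CD, and endothelial markers to 36.4 to 110.4 CPM in m12_CD+VC and 23.3 to 34.0 CPM in m12_CD. Entries with no overlap on the other strand took 26.5% ± 4.64 of the counts in m12_CD+VC and 15.5% ± 3.58 in m12_CD (SD, n = 3 each). The part of any of these in the lipogenic values was not tested. Both comparisons use the m12_CD+VC libraries, so their values are not separate evidence.

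**Figure D2:**
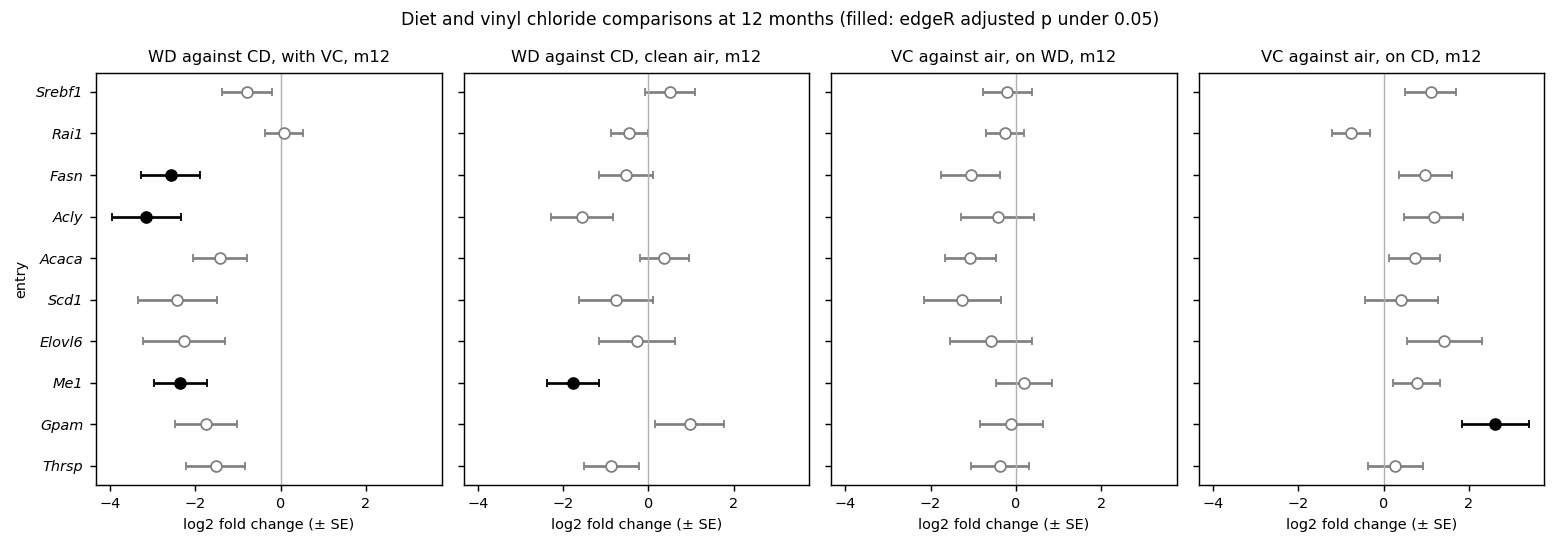
Log2 fold change ± SE of the 10 entries (rows) in the 4 comparisons at 12 months, from the edgeR fit. Filled symbols have an adjusted p under 0.05. Western over control diet with vinyl chloride gives the lowest values, down to -3.16 for Acly, and VC over air on control diet gives 2.62 for Gpam.

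Among mice that breathed air, Western diet at 12 months left most lipogenic entries without a call. Me1 fell, with 20.4, 17.2 and 2.08 CPM in m12_WD, against 18.1, 38.3 and 41.4 CPM in m12_CD, and the groups overlapped. Its log2 fold change was -1.76 (SE 0.60), with an adjusted p of 0.0309 in edgeR. Here 11.1% of all tested entries fell and 24.5% changed in either direction, so 1 of 10 is near the background. The call ended without m12_CD 2, m12_CD 3 or m12_WD 3, with adjusted p of 0.0605, 0.0861 and 0.114. Me1 did not pass with RLE scaling, class-wise scaling or DESeq2 either, at 0.106, 0.0585 and 0.298. Fasn had 35.2, 196 and 60.3 CPM in m12_WD, against 15.1, 104 and 199 CPM in m12_CD, and Scd1 had 461, 1881 and 245 CPM in m12_WD, against 66.2, 1059 and 2277 CPM in m12_CD. Both genes spread more within a group than between the groups, with log2 fold changes of -0.53 (SE 0.63) for Fasn and -0.75 (SE 0.86) for Scd1. Thrsp had 40.7, 135 and 71.7 CPM in m12_WD, against 24.1, 108 and 215 CPM in m12_CD, and overlapped likewise. Gpam was the only entry of the 10 with all m12_WD libraries, at 11.1, 19.6 and 13.5 CPM, above all m12_CD libraries. The same held for 28.9% of the 4198 tested entries. In m12_CD Gpam had 0, 4 and 3 counts, and its log2 fold change of 0.97 (SE 0.81) had an adjusted p of 0.403 in edgeR. Marker sums of several cell types were apart between these groups. They were 12661 to 26735 CPM in m12_WD and 3508 to 11249 CPM in m12_CD for hepatocytes, and 588 to 837 CPM in m12_WD and 66.2 to 140 CPM in m12_CD for macrophages. For stellate cells and fibroblasts they were 172 to 196 CPM in m12_WD and 6.02 to 25.5 CPM in m12_CD, for endothelial cells 120.3 to 179 CPM in m12_WD and 23.3 to 34.0 CPM in m12_CD, and for cholangiocytes 81.4 to 216 CPM in m12_WD and 0 to 10.3 CPM in m12_CD. Entries with no overlap on the other strand took 25.8% ± 3.91 of the counts in m12_WD and 15.5% ± 3.58 in m12_CD (SD, n = 3 each). The part of these shifts in any result of this comparison was not tested. Srebf1 had 51.8, 128 and 26.0 CPM in m12_WD, and its log2 fold change over m12_CD was 0.50 (SE 0.59).

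Vinyl chloride on Western diet at 12 months had calls for 0 of the 10 entries, beside 0.572% of tested entries. The log2 fold changes were below 0 for 9 of the 10, with 0 calls by DESeq2. Their median was -0.40, beside -0.04 over all tested entries, and levels of these entries were correlated, so the 9 are not separate observations. In edgeR 0 of the 10 had an unadjusted p under 0.05, beside 459 of all tested entries. The difference between the diet effects with and without vinyl chloride, a diet by VC interaction, was called for 0 of the 10 entries and for 9.81% of all tested. The values nearest to a call were those of Gpam at -2.73 (SE 1.09, adjusted p 0.0940 in edgeR) and Fasn at -2.04 (SE 0.93, adjusted p 0.139). In edgeR 3 of the 10 entries had an unadjusted p under 0.05, beside 1240 of the 4198 tested entries, and DESeq2 had 0 calls. The diet effects on these genes were thus not shown to differ between exposed and air-breathing mice.

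At the end of exposure no lipogenic entry passed the test with the expression filter. Fasn had 17.6, 21.1 and 19.7 CPM in w12_WD+VC, 66.6 and 14.8 CPM in w12_WD, 109, 78.1 and 24 CPM in w12_CD+VC, and 205, 9.48 and 12.5 CPM in w12_CD. Scd1 had 171, 113 and 381 CPM in w12_WD+VC, 1436 and 317 CPM in w12_WD, 3130, 561 and 181 CPM in w12_CD+VC, and 3839, 310 and 173 CPM in w12_CD. Thrsp had 8.82, 17.6 and 32.9 CPM in w12_WD+VC, 169 and 36.9 CPM in w12_WD, 138, 42.6 and 5.33 CPM in w12_CD+VC, and 186, 15.8 and 12.5 CPM in w12_CD. Library 1 was the highest in w12_WD, w12_CD+VC and w12_CD for each of these 3 genes, and in w12_CD it exceeded the lowest 21.6-fold for Fasn, 22.2-fold for Scd1 and 14.8-fold for Thrsp.

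The less abundant entries stood near the depth limit. Acly had 5.29, 14.1 and 13.2 CPM in w12_WD+VC, 54.7 and 0 CPM in w12_WD, 66.5, 28.4 and 5.33 CPM in w12_CD+VC, and 108, 6.32 and 0 CPM in w12_CD. Me1 reached 5.29 to 14.1 CPM in w12_WD+VC, 14.8 to 28.5 CPM in w12_WD, 10.7 to 28.4 CPM in w12_CD+VC and 3.16 to 38.7 CPM in w12_CD. Gpam reached 3.53 to 10.6 CPM in w12_WD+VC, 7.13 to 14.8 CPM in w12_WD, 2.67 to 26.1 CPM in w12_CD+VC and 3.16 to 50.3 CPM in w12_CD. Acaca and Elovl6 had highest values of 30.9 and 42.6 CPM at this time, both in w12_CD+VC. In each of these 5 genes some w12 library rested on 0 to 2 counts.

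With this spread, diet with VC at 12 weeks had calls for 0 of 10 entries, beside 0.524% of all, and 0 calls by DESeq2. Diet in air had 0 calls, beside 0.0238%, and 0 by DESeq2. An unadjusted p under 0.05 in edgeR was found for 3 of the 10 with VC and 1 in air, beside 450 and 237 of all tested entries. VC on control diet had 0 calls, beside 0.0% of all entries, and VC on Western diet had 0, also beside 0.0%, with 0 and 2 of the 10 at an unadjusted p under 0.05 and 170 and 235 of all tested entries. DESeq2 also called 0 entries in both VC comparisons. The interaction at 12 weeks had 0 calls, beside 0.0238%, and 0 by DESeq2. For it, 2 of the 10 had an unadjusted p under 0.05 in edgeR, beside 186 of all tested entries. For Thrsp, the VC over air value on Western diet was -2.66 on the log2 scale (SE 0.89), with an unadjusted p of 0.00521 and an adjusted p of 0.636 in edgeR. Without the expression filter, edgeR called Rai1 as higher for diet in air, Scd1 as lower for diet with VC, Rai1, Scd1 and Thrsp as lower for VC on Western diet, and Rai1 as lower for the interaction, all at 12 weeks. A p above the threshold in libraries of this depth does not show that levels were equal.

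Between the times none of the 10 entries was called in the fit with all libraries and the expression filter. On control diet with VC the log2 fold change of m12 over w12 was above 0 for 10 of 10 entries, with values of 1.52 (SE 0.64) for Srebf1, 1.72 (SE 0.67) for Fasn and 1.85 (SE 0.73) for Acly. The median was 1.35 over the 10 entries and 0.13 over all tested entries. There were 0 calls beside 6.38% of all entries, and 0 by DESeq2. In edgeR 4 of the 10 had an unadjusted p under 0.05, beside 1045 of all 4198 tested. On Western diet with VC there were 0 calls beside 0.786%, on Western diet in air 0 beside 14.6%, and on control diet in air 0 beside 1.62%. In these, 1, 0 and 1 of the 10 had an unadjusted p under 0.05, beside 496, 1195 and 612 of all tested, and DESeq2 called 0. Their log2 fold changes were above 0 for 10, 4 and 8 of the 10, beside medians of 0.05, 0.21 and -0.01 over all tested entries. A rise of 10 of 10 was thus not particular to control diet with VC. The comparison on control diet in air turned on 1 library. Without w12_CD 1, 4 of the 10 passed as higher at 12 months, Fasn at 3.21 on the log2 scale (adjusted p 0.0274 in edgeR), Acly at 4.03 (0.0360), Thrsp at 3.02 (0.0468) and Rai1 at 2.56 (0.00750), beside 29 of 4711 entries tested in that fit. Since w12_CD 1 was the highest library of its group for 10 of 10 entries, leaving it out raises these values by construction, and they are given only to show how much the comparison turned on it.

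The library with the highest level was often the same for many of the 10 entries, though not in every group. In w12_CD, library 1 was the highest for 10 of 10 entries, while 51.0% of all tested entries were highest there. In m12_WD, library 2 was the highest for 8 of 10, beside 39.7% of all entries, and in m12_CD, library 3 was the highest for 7 of 10, beside 35.4%, and library 1 for 0 of 10, beside 21.1%. In w12_WD, by contrast, library 1 was the highest for 6 of 10, beside 60.3% of all entries, and in m12_CD+VC libraries 1, 2 and 3 were the highest for 5, 3 and 2 of the 10. Over the 23 libraries, log2 CPM of Fasn correlated with that of Acly at r = 0.905, of Thrsp at 0.870, of Scd1 at 0.830, of Me1 at 0.740, of Gpam at 0.729, of Acaca at 0.715 and of Elovl6 at 0.704. Srebf1 was at 0.659 and Rai1 at 0.411, and the median over the other tested entries was 0.043. These points share libraries, groups and depth, and include the differences between groups, so the values are descriptions. Outside the 10 entries, those most like Fasn were H2-Q10, a liver-expressed class Ib histocompatibility gene, at 0.909, the glutamine transporter Slc38a3 at 0.860, the folate enzyme Aldh1l1 at 0.847, the arginase Arg1 at 0.840 and Fdps, an enzyme of isoprenoid synthesis, at 0.837. Aldh1l1 overlaps another gene on the other strand.

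**Figure D3:**
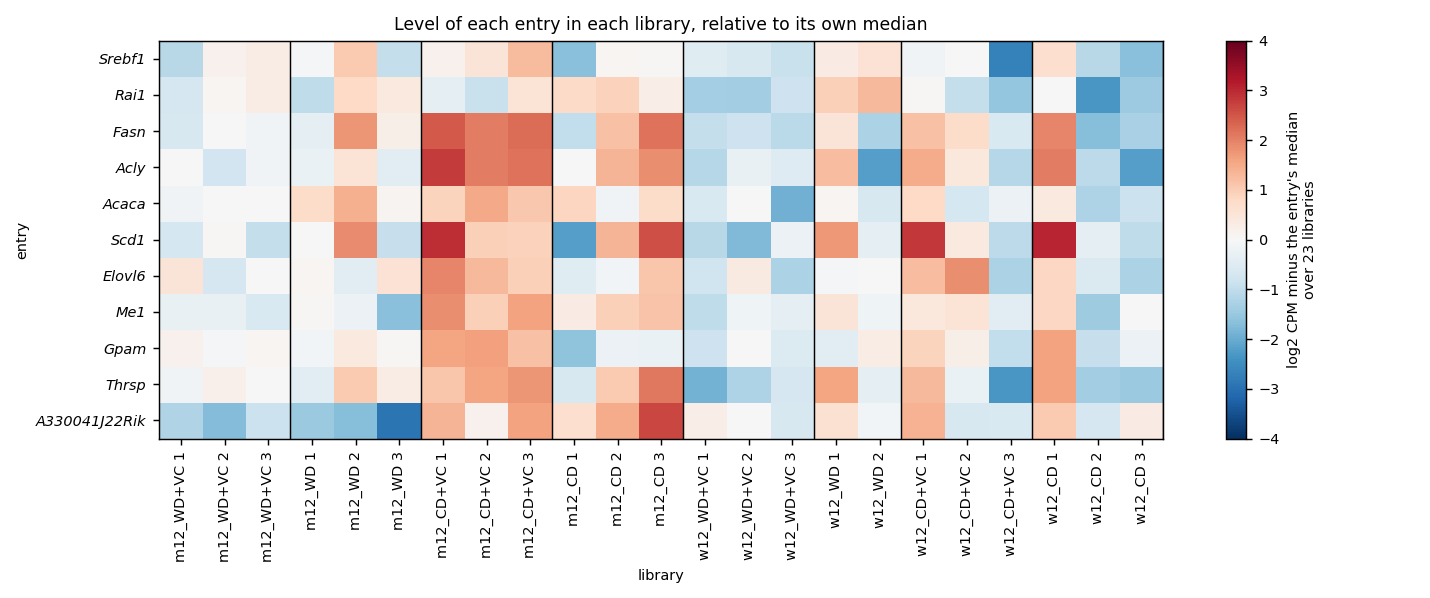
Log2 CPM of each of the 10 entries minus that entry's median over the 23 libraries (colour scale), with libraries as columns by group and entries as rows. A last row shows A330041J22Rik, the antisense transcript that overlaps Me1. In w12_CD the first library is the highest of its group for 10 of 10 entries, although for Rai1 it lies at the median over the 23 libraries. The m12_CD+VC columns are high for most enzymes.

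Srebf1 and Rai1 are neighbours that meet tail to tail, and the counts do not separate them by strand. Srebf1 lies at chr11:60199089-60222581 on the minus strand and Rai1 at chr11:60105013-60199197 on the plus strand (GRCm38), and their exons share 109 bases. No source used here gives the strand setting of the read counter, so reads from the shared bases cannot be told apart. Rai1 held 3095 counts over the 23 libraries and Srebf1 431, a ratio of 7.18, and within libraries the ratio ran from 2.45 to 48.3 with a median of 6.76. Log2 CPM of both correlated at r = 0.539 over the 23 libraries. Rai1 had 111, 116 and 197 CPM in w12_WD+VC, 668 and 797 CPM in w12_WD, 351, 170 and 98.7 CPM in w12_CD+VC, and 364, 60.0 and 100.2 CPM in w12_CD. The w12_WD pair stood above the other w12 libraries. At 12 months in air the diet groups overlapped for Rai1, with 178, 690 and 496 CPM in m12_WD and 437, 617 and 362 CPM in m12_CD. VC over air on Western diet gave a log2 fold change of -2.29 (SE 0.51, adjusted p 0.116 in edgeR), and Western over control diet in air gave 2.02 (SE 0.50, adjusted p 0.242). Without w12_CD 1, the diet value for Rai1 became 2.91 with an adjusted p of 0.0180, the library left out being the highest of its group, and the interaction at 12 weeks, -2.60 with all libraries (adjusted p 0.600), became -3.49 with 0.0162.

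Srebf1 in the same groups had 30.0, 28.2 and 26.3 CPM in w12_WD+VC, 64.2 and 73.8 CPM in w12_WD, 45.1, 49.7 and 2.67 CPM in w12_CD+VC, and 89.0, 19.0 and 10.0 CPM in w12_CD. It too had both w12_WD libraries above the w12_WD+VC libraries, but its log2 fold change of -1.13 (SE 0.72) had an adjusted p of 0.950 in edgeR. Outside the 10 entries, those most like Rai1 over the 23 libraries were Mid1ip1, a homologue of Thrsp that promotes acetyl-CoA carboxylase polymerisation, at r = 0.689, the unconventional myosin gene Myo5b at 0.679, Lrrc61 at 0.634, the reductase gene Cyb5r3 at 0.622 and the ubiquitin ligase gene Trim8 at 0.617, beside a median of -0.012. Mid1ip1, Lrrc61 and Cyb5r3 each overlap an entry on the other strand. Among the 10, Thrsp was the most like Rai1, at 0.638.

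Me1 also shares exon bases with an entry on the other strand, the antisense transcript A330041J22Rik at chr9:86695460-86701253, plus strand, with 30 bases in common. It held 6155 counts against 199 for Me1 over the 23 libraries, and the ratio within a library ran from 9.82 to 106 with a median of 29.0. At 12 months A330041J22Rik had 240, 178 and 298 CPM in m12_WD+VC and 1525, 705 and 1660 CPM in m12_CD+VC. It had 199.8, 187 and 72.7 CPM in m12_WD and 635, 1435 and 3066 CPM in m12_CD. Western diet libraries lay below control diet libraries in both pairs. The transcript fell on Western diet by 2.43 on the log2 scale with VC (SE 0.52, adjusted p 0.0114 in edgeR) and by 3.84 in air (SE 0.55, adjusted p 9.3e-06). The air result stayed past the threshold in 7 of 7 fits that left out a library, and the VC result in 5 of 7, being lost without m12_CD+VC 3 or m12_WD+VC 2. On Western diet in air it also fell between the times, by 2.22 on the log2 scale at m12 over w12 (SE 0.55, adjusted p 0.00674 in edgeR), where w12_WD had 820 and 472 CPM. That call ended without w12_WD 1 and, at an adjusted p of 0.0882, with DESeq2. Its log2 CPM correlated with that of Me1 at r = 0.748. Reads of the 2 transcripts over the shared bases cannot be told apart in these counts. Elovl6 shares 34 exon bases with Gm35986, which was not analysed here.

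**Figure D4:**
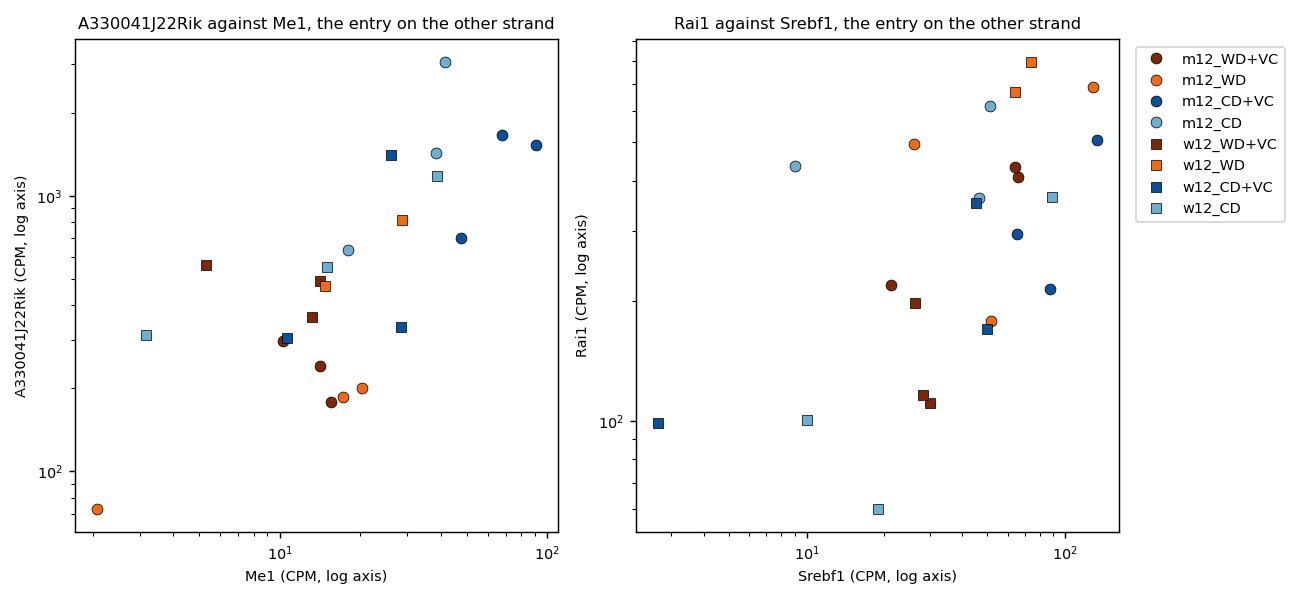
CPM of A330041J22Rik against Me1 and of Rai1 against Srebf1 (both axes logarithmic), 1 point per library, 23 libraries, coloured by group. A330041J22Rik exceeds Me1 by 9.82-fold to 106-fold and Rai1 exceeds Srebf1 by 2.45-fold to 48.3-fold.

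Other genes of the pathway were read as 4 lists beside the 10 entries. With VC at 12 months, Western diet lowered 1 of 10 tested regulators, 1 of 8 genes of substrate supply, 2 of 6 of elongation and desaturation and 0 of 12 of triglyceride assembly and storage, and raised 0 in each. Of all tested entries 1.1% fell and 1.81% changed in either direction. Insig1, an ER protein that restrains SREBP processing and is itself a target of SREBP, had 0, 4.68 and 10.3 CPM in m12_WD+VC, against 96.2, 63.4 and 67.7 CPM in m12_CD+VC. Acss2, the cytosolic acetyl-CoA synthetase, had 14.1, 9.36 and 7.70 CPM in m12_WD+VC, against 113, 63.4 and 93.7 CPM in m12_CD+VC. The groups did not overlap for either. Of the desaturases of polyunsaturated fatty acids, Fads1 averaged 39.6 ± 9.91 CPM in m12_WD+VC and 184 ± 28.0 CPM in m12_CD+VC, and Fads2 averaged 133 ± 22.6 CPM in m12_WD+VC and 528 ± 115 CPM in m12_CD+VC (SD, n = 3 each). The log2 fold changes were -3.59 for Insig1 (adjusted p 0.0110 in edgeR), -3.21 for Acss2 (0.0219), -2.09 for Fads1 (0.0151) and -2.00 for Fads2 (0.00253). Leaving out m12_WD+VC 2 ended each of these 4 calls, m12_WD+VC 3 those of Fads1 and Acss2, m12_WD+VC 1 that of Fads1, and m12_CD+VC 1 or 3 that of Acss2, which DESeq2 did not call either. The medians of the 4 lists were -0.46, -1.17, -1.98 and -0.69 on the log2 scale, beside -0.01 over all tested entries.

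In air at 12 months, where the marker sums given above were also apart, the lists held calls in both directions. Of the regulators, Ppara, the receptor that drives fatty acid oxidation, and Mlxipl, which encodes the carbohydrate-responsive factor ChREBP, rose on Western diet, and Insig1 fell. Ppara had 44.4, 78.6 and 22.9 CPM in m12_WD, against 0, 8.50 and 2.59 CPM in m12_CD, a log2 fold change of 3.09 (SE 0.73, adjusted p 0.00244 in edgeR). Insig1 had 5.55, 44.2 and 3.12 CPM in m12_WD, against 51.2, 59.5 and 69.9 CPM in m12_CD, a log2 fold change of -2.34 (adjusted p 0.00743 in edgeR). Of triglyceride assembly and storage, 5 of 12 rose and 1 fell. Of all 4198 tested entries 562 rose and 466 fell, 24.5% in either direction, and the counts in the other lists, 3 of 10, 1 of 8 and 2 of 6, are near that share. The acyltransferase Agpat2 averaged 94.9 ± 19.1 CPM in m12_WD and 20.4 ± 13.2 CPM in m12_CD (SD, n = 3 each), and the lipid droplet coat gene Plin2 averaged 193 ± 90.9 CPM in m12_WD and 55.2 ± 43.2 CPM in m12_CD. Cidec, a droplet fusion gene, averaged 63.4 ± 22.8 CPM in m12_WD and 111 ± 10.8 CPM in m12_CD and was the one that fell. In 1 of 8 of substrate supply, Acss2, and 2 of 6 of elongation and desaturation, Fads1 and Fads2, the level fell. The Ppara, Insig1 and Agpat2 calls stayed in 7 of 7 fits that left out a library. Calls that 1 library ended were Mlxipl (m12_CD 1, m12_CD 2 or m12_WD 2), Plin2 (m12_CD 1, m12_WD 1 or m12_WD 2), Cidec (m12_WD 2), Acss2 (m12_CD 3), Fads1 (m12_CD 3, m12_WD 1 or m12_WD 3) and Fads2 (m12_CD 3 or m12_WD 1). Acsl5, another of the 5 storage genes that rose (log2 fold change 1.17, adjusted p 0.0399 in edgeR), stayed called in only 2 of 7 such fits. Its call ended without m12_CD 1, m12_CD 3, m12_WD 1, m12_WD 2 or the small w12_WD library. DESeq2 did not call Insig1, Acss2, Cidec, Fads1 or Fads2, and RLE scaling lost Cidec, Fads1 and Fads2. Class-wise scaling lost Plin2, and omitting the expression filter lost Mlxipl and Acsl5. The medians of the 4 lists were 0.42, 0.22, -0.74 and 1.18 on the log2 scale, beside 0.11 over all tested entries. Mlxipl, Acss2, Agpat2 and Acsl5 overlap entries on the other strand.

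Vinyl chloride on control diet at 12 months raised 1 of 10 regulators, Ppara, and 3 of 12 genes of triglyceride assembly and storage, Acsl1, Acsl5 and Plin2, and lowered 0 in the 4 lists, whose medians were 0.48, 0.88, 0.46 and 1.75 on the log2 scale beside 0.07 over all tested entries. Of all tested entries 4.1% rose and 5.22% changed in either direction, so 1 of 10 regulators is a count near the background. Plin2 had 229, 246 and 320 CPM in m12_CD+VC, against 6.02, 87.2 and 72.4 CPM in m12_CD, a log2 fold change of 1.94 (adjusted p 0.0167 in edgeR). The acyl-CoA synthetase Acsl5, which overlaps Zdhhc6, had 184, 103 and 154 CPM in m12_CD+VC, against 12.0, 46.8 and 33.6 CPM in m12_CD, a log2 fold change of 1.93 (adjusted p 0.0147 in edgeR). The Plin2 call ended without m12_CD 1, m12_CD+VC 2 or m12_CD+VC 3, and that of Acsl5 without m12_CD 1 or m12_CD+VC 1. Ppara had 14.2, 63.4 and 39.0 CPM in m12_CD+VC, against 0, 8.50 and 2.59 CPM in m12_CD, with an adjusted p of 0.0404 in edgeR that was over the threshold without m12_CD 1, m12_CD 3, m12_CD+VC 2, m12_CD+VC 3 or the small w12_WD library, and with class-wise scaling or no expression filter. The diet by VC interaction at 12 months was called for 1 of 10 regulators, Ppara, and 1 of 8 genes of substrate supply, Mdh1. It was called for 0 of 6 genes of elongation and desaturation and 3 of 12 of triglyceride assembly and storage, Acsl1, Acsl5 and Plin2. Of all tested entries 9.81% were called, so 1 of 10 and 1 of 8 are near the background. Mdh1, the cytosolic malate dehydrogenase gene, overlaps Wdpcp. The interaction was -2.91 for Plin2 (adjusted p 0.00741 in edgeR) and -2.65 for Acsl5 (0.00785), both called in 13 of 13 fits that left out a library. It was -3.51 for Ppara (adjusted p 0.0221 in edgeR), called in 8 of 13 such fits, and -2.06 for Mdh1 (0.0376), called in 5 of 13. Hepatocyte marker sums averaged 8404 ± 4259 CPM in m12_CD and 27808 ± 10098 CPM in m12_CD+VC (SD, n = 3 each). On Western diet they averaged 20637 ± 7223 CPM in m12_WD and 11021 ± 2408 CPM in m12_WD+VC. These means too were higher after VC on control diet and lower after VC on Western diet. The part of this in the interaction values was not tested. Between the times on control diet with VC, Insig1, Acss2, Fads1, Fads2 and Plin2 rose and Cidec fell, beside 6.38% of all tested entries called. On control diet in air only Fads2 was called, beside 1.62%, and on Western diet in air Agpat2 and Plin2 rose, beside 14.6%. Each of these calls except those of Fads2 ended in some fit that left out a library. Fads2 had 464, 460 and 661 CPM in m12_CD+VC against 147, 78.1 and 80.0 CPM in w12_CD+VC, and 217, 404 and 461 CPM in m12_CD against 147, 72.6 and 37.6 CPM in w12_CD. These log2 fold changes were 2.16 with VC (adjusted p 0.00167 in edgeR) and 2.26 in air (0.000841), and both calls stayed in 7 of 7 fits that left out a library.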

How the data were processed

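Per the labels' protocols, rRNA-depleted liver RNA was made into libraries with a kit that, as named, does not mark strand. The build is mm10, and the tools listed per the submitters' processing notes are Trimmomatic 0.38, HISAT2 2.1.0 and HTSeq 0.11.2. Annotation, strand setting and filters are given in no source used here. Raw counts per gene symbol were taken from the authors' deposited series table. The deposited per-sample files hold log2 values of the same counts divided by a size factor, plus 1, a relation that 0 values missed by more than 1e-06, and were not tested.

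The 24 libraries in 8 groups entered 1 quasi-likelihood model (edgeR 4.0.16, R 4.3.3) after edgeR's expression filter and TMM scaling. Diet, VC and time effects within the other conditions and a diet by VC interaction per time gave 14 comparisons, each Benjamini-Hochberg adjusted over 4198 entries at 0.05. Log2 CPM for correlations used TMM and a prior count of 2. Replicates of a group were all counted, since their counts differed beyond sampling noise. The test was tried on simulated data. Gene positions are from GENCODE M21 (GRCm38); 23989 of 24421 entries were placed.

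Alternatives were RLE scaling, no expression filter, DESeq2 1.42.0, class-wise scaling of entries with and without an overlap on the other strand, a block for the replicate number, and the omission of each compared library. Leaving out the 607-count library in every comparison was chosen after seeing the data. The 10 entries, the pathway lists and the markers were chosen with earlier results of these data known. Named were the 10 entries, partners on the other strand, up to 4 called genes per list by adjusted p, given for a selection of comparisons, and the 5 entries most like Fasn and Rai1.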

Additional observations from a re-analysis of the deposited data

How the results depend on the processing

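Counts of lipogenic entries called moved under the alternatives, and 0 of the called values changed direction. With RLE scaling, 0 were called for Western against control diet at 12 months, both in air and with VC, against 1 and 3 in the fit as reported. DESeq2 gave 0 in these comparisons and 0 for VC on control diet at 12 months, where it set no adjusted p for 2 of the 10 entries, and for 4 in the diet comparison with VC. For VC on control diet at 12 months, class-wise scaling, no expression filter and the replicate block each gave 0 against 1. Without the expression filter, 1 was called for diet in air and for diet with VC at 12 weeks, 2 for diet in air at 12 months, 3 for VC on Western diet at 12 weeks, 1 for the interaction at 12 weeks, and 1 for time on control diet and on control diet with VC. Replicate numbers did not pair the libraries, since the correlations of same-numbered deviations ran from -0.31 to 0.18. With the replicate block, 2 were called for diet with VC at 12 months and 1 for diet in air.

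Leaving out 1 library gave 0 to 1 calls for diet in air at 12 weeks, diet in air at 12 months, diet with VC at 12 months and the interaction at 12 weeks, 0 for VC on control diet at 12 months, and 0 to 4 for time on control diet. The cause of these changes was not tested. Over all entries, diet with VC at 12 months had 76 calls, against 46 with RLE scaling, 45 with DESeq2 and 2 to 72 without a library. Diet in air at 12 months had 1028 calls, 562 higher and 466 lower, against 667 with DESeq2 (512 higher, 155 lower), 915 higher and 253 lower with RLE scaling, and 435 higher and 492 lower with class-wise scaling. VC on control diet at 12 months had 219 calls, 172 higher and 47 lower, against 434 higher and 8 lower with RLE scaling, 232 higher and 0 lower with DESeq2, and 103 with class-wise scaling and without the filter. RLE scaling moved the median log2 fold change of all entries to 0.50 in the diet comparison in air and 0.48 in that of VC on control diet, against 0.11 and 0.07. Acly, Acaca, Elovl6, Gpam and Me1 had medians of 18.0, 16.6, 7.70, 12.5 and 17.2 CPM, within the 3.12 to 23.8 CPM that 3 counts came to, which limits what can be said of them.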
